A study of Mus musculus with 16 samples.

Results

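The comparison described here is the second day of auxin against the first in mouse embryonic stem cells that carry an auxin-inducible degron on Ddx10. All 16 libraries of the series came from 1 line of E14 cells, in which Ddx10 is joined to the degron (AID) and the plant F-box protein Tir1 is expressed. Auxin (indole-3-acetic acid, 500 µM) leads Tir1 to mark the tagged protein for degradation. The 2 libraries of 1 day and the 2 libraries of 2 days in auxin were compared, with untreated cells as the starting level and with cells given 2 days of auxin and then 2 days without it (withdrawal) as the level after auxin was removed. All cells were grown on gelatin in serum medium with LIF and inhibitors of GSK3 and MEK. The measurement was mRNA sequencing, deposited as 1 table of normalized counts for 14552 genes. The rule kept genes whose mean was 10 or more in the whole series, which left 13355 genes. Cox4i2 lay just outside that limit, with a mean of 9.994.

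DDX10 belongs to the DEAD-box helicases, enzymes that remodel RNA, and the series title ties it to pluripotency and to production of 18S rRNA, which forms the core of the small ribosomal subunit. When ribosome assembly fails, unassembled ribosomal proteins can bind MDM2, the protein that marks p53 for degradation, and p53 then switches on genes of growth arrest and cell death. Embryonic stem cells divide fast, with short gap phases, and a small share of them passes at any time through a state that resembles the 2-cell embryo. No library of auxin-treated cells lacking the degron was analysed here. What auxin does by itself and what loss of DDX10 does therefore cannot be told apart.

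Normalized counts summed to 14871878 to 16900740 per library and 14408 to 14494 genes had a value above 0. The median standard error (SE) of a log2 change was 0.158, on the scale of log2(normalized count + 1), which understates the change of low genes. Each SE rests on 1 spread per gene shared by all 8 groups, so it can be too small where replicates differ more. The 1 day libraries were less alike than the 2 day libraries: the log2 difference between the 2 replicates had an SD over genes of 0.533 at 1 day and 0.38 at 2 days, and 774 and 379 genes were at least 2-fold apart. Untreated replicates differed more still, with an SD of 0.619. Across 13286 genes with an annotated length, replicate 1 minus replicate 2 at 1 day had a Spearman correlation of 0.35 with exon length, and 2 days minus 1 day one of 0.13. With GC content these correlations were -0.17 and 0.18, and transcripts of genes called lower on the second day had a median GC content of 43.6%, those called higher 51.9% and all 49.9%. These are descriptions across genes of the same 4 libraries. For 1015 genes the 8 libraries of 2 to 12 h all lay beyond the 8 libraries of the other groups, and 1 day, 2 days, untreated and withdrawal lie on the same side of that split. Whether replicates were separate cultures is not stated in the labels, and p-values measure the spread between these libraries, which may be technical. The mRNA of Ddx10 was at 1159.7 and 889 at 1 day and at 997 and 1041 at 2 days, against 1433 and 1509 untreated. The degron acts on the protein, so this mRNA level does not check the depletion.

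Between 1 and 2 days 210 genes rose and 544 fell in limma with an adjusted p below 0.05 (Benjamini-Hochberg over all genes tested), which is 1.57% and 4.07% of the genes tested. Of these, 66 rose and 82 fell by at least 2-fold. The share of called genes that rose was 27.9%, and 42.3% when libraries were scaled by upper quartiles (298 higher, 406 lower). The median change of all genes was -0.01. All 754 called genes had 1 day and 2 day libraries that did not overlap, as had 6138 of all genes tested (46%). Changes against untreated were more frequent: 15.9% of genes were higher and 17.7% lower at 1 day, and 21.0% and 23.8% at 2 days. Leaving out 1 day replicate 1 gave 707 higher and 819 lower genes, and leaving out 2 day replicate 2 gave 30 and 176. A limma fit of the 4 libraries alone called 0 genes (lowest adjusted p 0.089), with 889 higher and 910 lower at an unadjusted p below 0.05, where the fit over all 16 libraries had 1143 and 1632. In bulk RNA fewer cells of one kind and less RNA per cell cannot be told apart.

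**Figure D1:**
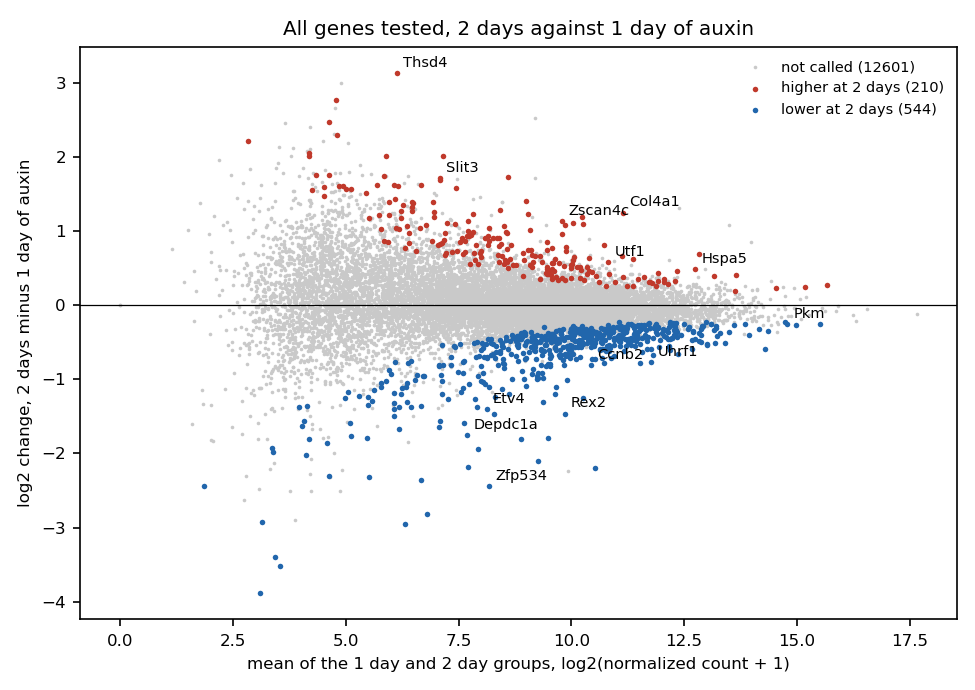
Log2 change of each gene tested from 1 to 2 days of auxin (vertical axis) against its mean level in both groups on a log2 scale (horizontal axis). Red points are the 210 genes called higher and blue points the 544 called lower, most of the latter with log2 changes between 0 and -1; Rex2 (-1.46) and Zfp534 (-2.44) stand far below, Col4a1 (1.25) and Thsd4 (3.14) far above.

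Each gene was placed by its change at 1 day and its change from 1 to 2 days. A gene progressed if both changes were called with the same sign, and 309 did, 249 of them downward and 60 upward. A gene reversed if both were called with opposite signs, and 93 did: 49 were lower at 1 day and then rose, and 44 were higher at 1 day and then fell. A gene had levelled off if it was called at 1 day and at 2 days against untreated with the same sign, was not called between the days, and the 95% interval of its change between the days stayed within 1.5-fold. That held for 2338 of the 4484 genes called at 1 day, 1351 lower and 987 higher. A further 352 genes were called between the days without a call at 1 day (251 fell, 101 rose), and 1744 genes called at 1 day could not be placed at this precision. The 1 day libraries enter both changes with opposite sign, so scatter in them alone moves genes toward the reversed class, and the class counts are given as a description. Without 1 day replicate 1 the reversed class held 521 genes, and without 2 day replicate 2 it held 23.

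A comparison that shares no library with these 4 is 12 h against 2 h of auxin, in which 10.9% of genes were higher and 13.7% lower. Of the 544 genes that fell on the second day, 177 were also called lower at 12 h over 2 h and 40 were called higher there. Of the 210 genes that rose, 39 were also called higher and 37 lower. The 1829 genes called lower at 12 h over 2 h had a median log2 change of -0.0786 from 1 to 2 days, and the 1451 called higher one of 0.0321.

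Of the gene lists examined, the one of mitosis held the most calls on the second day. Of 40 genes of the G2 phase and mitosis, 29 fell, beside 4.07% of all genes, and 0 rose. All 40 had a log2 change below 0, with a median of -0.43 against -0.01 for all genes. Relative to untreated, the list's median level was -0.229 and -0.329 in the 1 day libraries and -0.808 and -0.824 in the 2 day libraries. After withdrawal it was -0.053 and -0.076. The earlier auxin libraries lie on the other side of the split described above, so they are compared with each other. Among them the list's median fell from 0.086 and 0.117 in the 2 h pair to -0.031 and -0.023 in the 12 h pair. For that step limma called 12 of the 40 genes lower and 1 higher, beside 13.7% and 10.9% of all genes. Of the 40 genes, 19 progressed, 9 were called on the second day without a call on the first, 4 had levelled off and 1 (Ccnf) reversed. With either 2 day library left out the count was 17. At withdrawal 35 of the 40 were higher than at 2 days.

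Ccnb2, which encodes cyclin B2, a partner of CDK1 at mitotic entry, was at 1687 and 1849 at 1 day and at 1051 and 970.3 at 2 days. Both 2 day libraries lie well below both 1 day libraries, which in turn lie near the untreated values of 2221 and 1859.6. Its log2 change between the days was -0.81 (SE 0.09, limma adjusted p = 0.00041). Ccnb1, cyclin B1, went from 4842 and 4520.2 to 3258 and 3088, a change of -0.56 (SE 0.07, limma adjusted p = 0.00053). Cenpa, the histone H3 variant of centromeres, went from 1414 and 1482 to 917 and 874. Kif20a, a kinesin of the central spindle, went from 3324 and 3157 to 2205 and 2221. All 4 calls held whichever of the 4 libraries was left out.

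Larger falls came from genes outside this list. Depdc1a, a gene expressed in mitosis, was at 305 and 329 at 1 day, as in untreated cells (353 and 289), and at 102 and 85.9 at 2 days, a log2 change of -1.75 (SE 0.16, limma adjusted p = 0.00015). Cenpk, a subunit of the inner kinetochore, was at 88.1 and 130.0 and then at 30.4 and 35.7. Neil3, a DNA glycosylase, was at 143 and 108 and then at 49.995 and 44.7. For these 3 genes the first day brought no call and the second a loss of over 2-fold, and withdrawal values (278 and 313 for Depdc1a) were near the untreated ones.

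Promoters of the mitosis genes were searched for 2 short sequences known from cell cycle genes, the CHR element, as TTTGAA, and the CCAAT box, as CCAAT, each on both strands. Windows of 300 bases around the RefSeq starts (GRCm38.p6) were found by gene symbol for 34 of the 40 genes. Of these 34 genes, 23 (67.6%) held TTTGAA and 21 (61.8%) held both in one window. Among all 9825 tested genes with a window, 13.9% held TTTGAA and 6.0% both. Of the 544 genes that fell 390 had a window and of the 210 that rose 143 had one. TTTGAA was in 24.6% and 7.7% of these, and CCAAT in 51.3% and 44.1%, against 43.7% of all. The genes that fell include 29 of the mitosis list, so the 2 sets are not separate. CCAAT was in 79.4% of the mitosis genes with a window. Among genes of the G1/S transition and DNA replication, 17.5% held TTTGAA, 65.0% CCAAT and 12.5% both. TTTGAA is rich in A and T, and the windows differed in GC content, with medians of 58.3% for the mitosis list, 59.3% for genes that fell, 64.7% for genes that rose and 61.3% for all; the part of GC content in the motif shares was not tested. These are matches of letters and not measured sites. The windows of Ccnb2, Ccnb1 and Cenpa are shown as examples with different numbers of matches, with motif matches on either strand in capitals.
Ccnb2 (chr9:70421505-70421804, minus strand): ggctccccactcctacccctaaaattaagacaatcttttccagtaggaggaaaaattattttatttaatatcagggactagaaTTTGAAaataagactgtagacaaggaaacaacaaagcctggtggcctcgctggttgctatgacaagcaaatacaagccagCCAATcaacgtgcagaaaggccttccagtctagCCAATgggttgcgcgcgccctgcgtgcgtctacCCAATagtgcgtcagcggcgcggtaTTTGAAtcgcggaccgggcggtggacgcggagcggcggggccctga
Ccnb1 (chr13:100786437-100786736, minus strand): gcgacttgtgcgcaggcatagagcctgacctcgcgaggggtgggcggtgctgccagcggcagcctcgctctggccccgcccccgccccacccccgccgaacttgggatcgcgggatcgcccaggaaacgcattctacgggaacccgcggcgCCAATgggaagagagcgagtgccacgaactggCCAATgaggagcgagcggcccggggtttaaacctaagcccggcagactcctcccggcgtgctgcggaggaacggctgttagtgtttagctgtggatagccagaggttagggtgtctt
Cenpa (chr5:30666636-30666935, plus strand): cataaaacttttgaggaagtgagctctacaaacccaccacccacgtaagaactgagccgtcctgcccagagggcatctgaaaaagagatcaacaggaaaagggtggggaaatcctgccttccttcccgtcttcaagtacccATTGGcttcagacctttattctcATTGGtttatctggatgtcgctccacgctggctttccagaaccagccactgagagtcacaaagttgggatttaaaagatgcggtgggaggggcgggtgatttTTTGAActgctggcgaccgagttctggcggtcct
The Ccnb2 window held 2 matches to TTTGAA and 3 to CCAAT, that of Cenpa 1 and 2, and that of Ccnb1 0 and 2.

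Genes of S phase fell as well, having started on the first day. Of 52 genes of the G1/S transition and DNA replication, 19 fell on the second day, beside 4.07% of all genes, and 0 rose (median -0.31). Of the 19, 18 had a fall already called at 1 day. A further 17 of the 52 had levelled off, which only a gene called at 1 day can do. At 1 day 37 of the 52 were lower and 3 higher, and over all genes 2338 of the 4484 called there had levelled off. Uhrf1, which guides maintenance of DNA methylation at replication, was at 9358 and 8634 untreated, 4733 and 4085 at 1 day and 2642 and 2525 at 2 days. Each step is larger than the distance between replicates, and the second was -0.77 (SE 0.07, limma adjusted p = 0.00015). Rrm2, a subunit of ribonucleotide reductase, went from 7275 and 5683 to 4089 and 4039, Pcna, the sliding clamp of DNA polymerases, from 5491 and 5229 to 3963 and 3846, and Cdc6, a loader of the replicative helicase, from 1108 and 973 to 646 and 719.6. Fam111a, a protease that binds PCNA at replication forks, was at 512 and 577 untreated, 287 and 241 at 1 day and 119.9 and 121 at 2 days (-1.12, SE 0.13, limma adjusted p = 0.00053). These calls held without any 1 of the 4 libraries, and the list's count was 7 without 2 day replicate 2 and 12 without 2 day replicate 1.

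**Figure D2:**
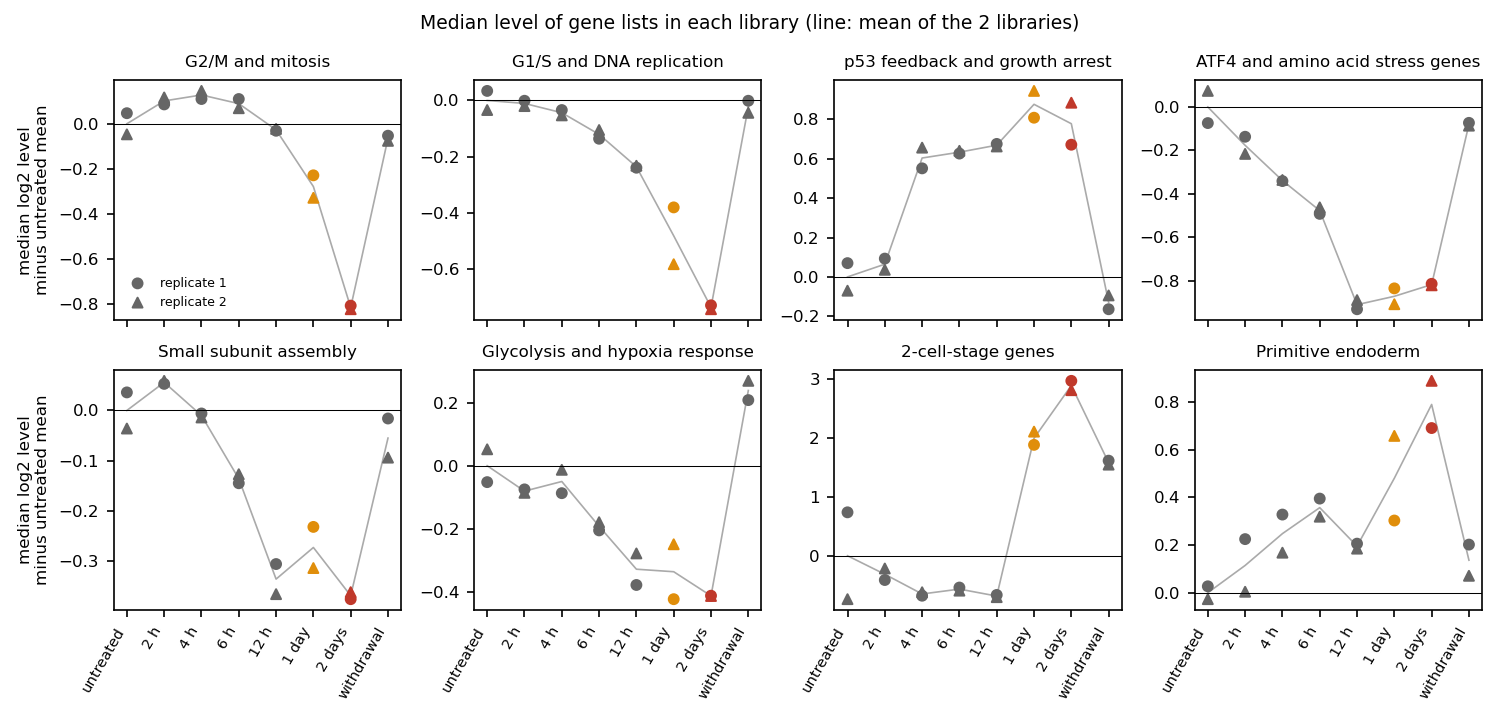
Median log2 level of 8 gene lists in each of the 16 libraries, relative to the mean of the untreated libraries (vertical axes), by group (horizontal axes); circles are replicate 1, triangles replicate 2, orange 1 day and red 2 days. The mitosis list lies at -0.229 and -0.329 at 1 day and at -0.808 and -0.824 at 2 days, while the ATF4 list lies between -0.814 and -0.908 at both times.

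Genes of the MYC network, the proteasome and the respiratory chain leaned downward; over all genes 4.07% were called lower and 6884 of 13355 changes were below 0. Of 30 genes of the MYC network, 6 fell and 0 rose (median -0.18), with 24 changes below 0; Nme1, a nucleoside diphosphate kinase, went from 1702 and 1727 to 1231 and 1186. Tfrc, the transferrin receptor, had been higher at 1 day (7724 and 8019.8, against 6841 and 6511 untreated) and then fell to 5176 and 5308. Of 36 genes of glycolysis and the hypoxia response 5 fell and 1 rose. Those that fell were the glycolytic enzymes Tpi1, Pgk1, Eno1, Pkm and Ldha; Pgk1, phosphoglycerate kinase, went from 12845 and 15812 untreated through 6247 and 6291 to 4896 and 4576. The 1 that rose was Bnip3, a mitophagy receptor and HIF target, at 63.4 and 76.1 and then 151 and 147, far below its untreated 338 and 645. Of 36 proteasome subunits 3 fell (Psmb2, Psmd7 and Psma1) and 0 rose, and 34 changes were below 0 (median -0.19), with 19 lower and 0 higher at an unadjusted p below 0.05. Of 75 respiratory chain subunits 4 fell and 0 rose, a share near that of all genes, and 63 changes were below 0 (median -0.13). The 6 glycolysis and hypoxia calls were each lost without 2 day replicate 2, those of Bnip3, Ldha and Tpi1 also without a 1 day library. The 3 proteasome calls were lost without either 2 day library. That of Psma1 was also lost without 1 day replicate 1, and those of Psmb2 and Psmd7 without 1 day replicate 2.

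Among p53 targets more genes had levelled off than were called between the days, and most changes were small and downward. Of 35 p53 targets of feedback and growth arrest, 27 were higher at 1 day and 0 lower, beside 15.9% and 17.7% of all genes. On the second day 18 had levelled off, 5 fell and 1 rose, beside 17.5%, 4.07% and 1.57% of all genes. Levelling off needs a call at 1 day, and 2338 of the 4484 genes called there had levelled off. Of the 35 changes between the days 28 were below 0 (median -0.14), with 11 lower and 1 higher at an unadjusted p below 0.05 in limma, where all genes had 1632 and 1143. Mdm2, which encodes the p53 ubiquitin ligase, was at 8883 and 7086 at 1 day and 7719.8 and 7623 at 2 days, against 2475 and 2434 untreated. Its 2 day libraries lie between the 1 day libraries, and the 95% interval of the change was -0.23 to 0.14. Cdkn1a, the cyclin-dependent kinase inhibitor p21, was at 5165 and 5747 and then at 5492 and 5486, with an interval of -0.16 to 0.18. Plk2 and Btg2, a polo-like kinase and an anti-proliferative factor, stood at 5052 and 4811 and at 2567 and 2636 at 2 days, within 1.5-fold of their 1 day levels by the interval. Of 16 p53 targets of cell death, 9 were higher and 2 lower at 1 day, 9 had levelled off, and 0 were called between the days by limma, with 1 higher and 1 lower at an unadjusted p below 0.05. Trp53 itself was at 11069 and 10565 at 1 day and at 11089.9 and 10615 at 2 days.

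The 5 p53 targets that fell were Trp53inp1, Ckap2, Ppm1d, Ccng1 and Eda2r, all of which had been higher at 1 day. Trp53inp1, a p53 cofactor and autophagy gene, was at 2371 and 2689 untreated, 9061 and 10399 at 1 day and 6701 and 6761 at 2 days, a second change of -0.53 (SE 0.10, limma adjusted p = 0.0087). Ckap2, a spindle protein as well as a p53 target, was at 3238 and 3194 and returned to 2287 and 2297, beside 2272 and 1887 untreated. Ccng1, cyclin G1, kept most of its gain, at 11592 and 11056 after 13761 and 13406, and its log2 change of -0.26 was -0.10 and not called once a trend with transcript length and GC content was removed. The target that rose was Sfn (14-3-3 sigma), a checkpoint protein, from 181 and 208 to 402 and 345. The count of 5 was 1 without 2 day replicate 1 and 0 without 2 day replicate 2, and Sfn lost its call without 2 day replicate 1.

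Most genes of the ATF4 response and of small subunit assembly had also levelled off. Over all genes 17.7% were lower and 15.9% higher at 1 day, and 17.5% had levelled off, or 2338 of the 4484 called at 1 day. Of 41 genes of the ATF4 and amino acid response, 32 were lower at 1 day and 3 higher, and 26 had levelled off. On the second day limma called 0 of these (median -0.06), with 4 higher and 6 lower at an unadjusted p below 0.05. Psat1 and Phgdh make serine, and their values were 9066 and 8326 and 3601 and 3926 untreated. Psat1 was at 2596 and 2160.0 at 1 day and at 2090.4 and 2137 at 2 days, and Phgdh at 1092 and 1023 and then at 925 and 991. Of 57 genes of small subunit assembly 33 were lower at 1 day, 31 had levelled off and 0 were called on the second day, with 42 of 57 changes below 0, a median of -0.09, and 2 higher and 14 lower at an unadjusted p below 0.05 in limma. Bms1, a GTPase of the small subunit processome, was at 3288 and 2749.8 and then at 2401 and 2533 (-0.29, limma adjusted p = 0.11, 95% interval -0.50 to -0.07). Of 62 genes of large subunit assembly 3 fell and 0 rose, a share near the 4.07% of all genes, and 50 changes were below 0. The 3 were Nsa2, Rpf2 and Wdr74, which fell by 0.26 to 0.33 on the log2 scale, with calls that were lost without either 2 day library. Those of Rpf2 and Wdr74 were also lost without 1 day replicate 2. Of 36 genes of RNA polymerases I and III limma called 0, with 0 higher and 5 lower at an unadjusted p below 0.05.

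**Figure D3:**
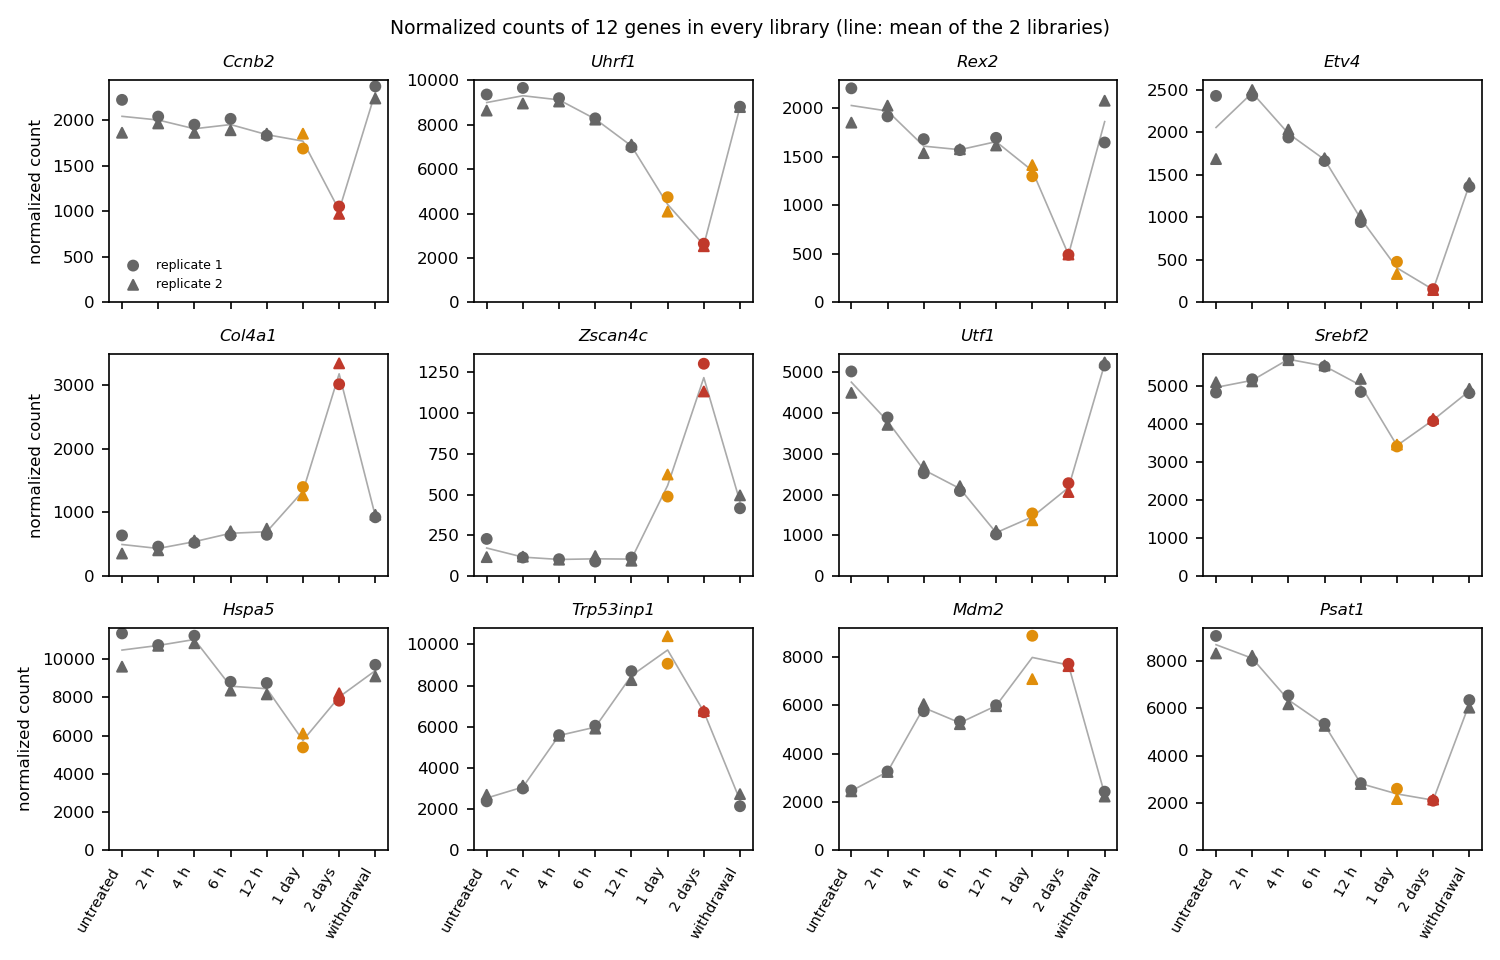
Normalized counts (vertical axes, from 0) of 12 genes in every library by group (horizontal axes); circles are replicate 1, triangles replicate 2, orange 1 day and red 2 days. Ccnb2, Uhrf1, Rex2 and Etv4 are lower at 2 days than at 1 day, Col4a1 and Zscan4c higher, Utf1, Srebf2 and Hspa5 part of the way back up, Trp53inp1 part of the way down, and Mdm2 and Psat1 level.

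Among core and naive pluripotency genes the general regulators did not pass the test. Of 37 genes 3 rose and 3 fell. Pou5f1 (Oct4) was at 16302 and 19111 at 1 day and at 18902 and 17659 at 2 days, with a 95% interval of the change of -0.11 to 0.21. Nanog was at 17389 and 15375 and then at 17573 and 16833 (interval -0.06 to 0.21), and Zfp42 (Rex1) at 8628 and 9052 and then at 9094 and 8505 (interval -0.13 to 0.12). Sox2 was at 10315 and 9448 and then at 8490.3 and 8452, a change of -0.22 (limma adjusted p = 0.088). The 2 day values of these 4 genes lie within 1.5-fold of the 1 day values by their intervals.

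Utf1 and Nr0b1 (Dax1), a chromatin factor and a nuclear receptor of stem cells, recovered part of an earlier loss. Utf1 was at 5013 and 4489.7 untreated, 1538 and 1368 at 1 day and 2278 and 2061 at 2 days, a second change of 0.58 (SE 0.08, limma adjusted p = 0.0016). Nr0b1 was at 2327 and 2232, then 1097 and 1171, then 1628 and 1502. In both genes the 2 day libraries lie between those of 1 day and those of untreated cells, and withdrawal reached 5159 and 5233 for Utf1. L1td1, an RNA-binding protein gene of stem cells, went from 5206 and 5211 to 3504 and 4108, a call that was lost without any 1 of the 4 libraries.

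Etv4 and Spred1, targets of FGF and ERK signalling, kept falling in medium that held a MEK inhibitor throughout. Etv4, an ETS factor downstream of ERK, was at 2428 and 1685 untreated, 477 and 333 at 1 day and 156 and 144 at 2 days, a second change of -1.40 (SE 0.16, limma adjusted p = 0.00049). Spred1, an inhibitor of the same pathway, went from 723 and 665 to 490.5 and 505, a call that was lost without either 2 day library. Of 24 genes of this pathway only these 2 fell and 0 rose, with 13 changes above 0 (median 0.01). Over all genes 4.07% fell and 1.57% rose. Spry4, with 748 and 584 untreated and 52.7 and 37.0 at 1 day, was at 33.7 and 20.3 (limma adjusted p = 0.086). Among 29 genes of the formative and primed epiblast 3 rose (Zic2, Foxd3 and Cdh2) and 2 fell (Etv4 and Nkx1-2). The 3 rises were each lost without either 2 day library or 1 of the 1 day libraries, and the call of Nkx1-2 without 2 day replicate 1. Zic2, a zinc finger factor of the epiblast, was at 648 and 479.9 and then at 997 and 919, within its untreated range of 754 and 1161. Of 22 WNT targets 2 fell, beside 4.07% of all genes, and 0 rose. Axin2, a feedback inhibitor, went from 704 and 997 to 409 and 481, and Cdx1 from 420.3 and 680.3 to 284 and 251. The call of Axin2 was lost without 1 day replicate 2 or 2 day replicate 1, and that of Cdx1 without 1 day replicate 2 or either 2 day library.

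Most genes of the 2-cell stage lay higher on the second day, few of them past the test. Of 24 such genes tested, 17 were higher at 1 day and 22 had a log2 change above 0 on the second day (median 0.87, against -0.01 for all genes), but 2 rose and 1 fell by the test. Zscan4c was at 228 and 117 untreated, 488 and 623 at 1 day, 1301 and 1131 at 2 days and, once auxin was withdrawn, 416 and 495; its second change was 1.14 (SE 0.26, limma adjusted p = 0.021). Zscan4b was at 339.7 and 375 and then at 771 and 679, and Zscan4d and Zscan4f at 236 and 322 and 804 and 1099 at 1 day and at 529 and 458 and 1829.9 and 1672 at 2 days (limma adjusted p = 0.19 and 0.068). In all 4 genes both 2 day libraries lie above both 1 day libraries, but 46% of all genes tested also showed no overlap in 1 direction or the other. Dppa3 was at 177 and 89.6 and then at 256 and 248, with an interval of -0.34 to 2.33. The calls of Zscan4c and Zscan4b were lost without 1 day replicate 1 or either 2 day library, that of Zscan4b also without 1 day replicate 2, and the untreated replicates of this list lay at 0.74 and -0.74 around their own mean. The Zscan4 genes are nearly the same in sequence, and the division of reads between them is uncertain. The gene that fell was Zfp640, from 61.7 and 37.5 to 24.5 and 9.54.

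Genes of the basement membrane made up most of the primitive endoderm list that rose. Of 24 genes of this list, 20 had a change above 0, with a median of 0.39 against -0.01 for all genes. The test called 6 higher, beside 1.57% of all genes, and 0 lower: Col4a1, Col4a2, Lamb1, Nid2, Serpinh1 and Krt19. The first 4 encode collagen IV, laminin and nidogen, Serpinh1 a collagen chaperone and Krt19 a keratin. The other laminin genes of the list, Lama1 (0.37) and Lamc1 (0.04), were not called (limma adjusted p = 0.54 and 0.82). Col4a1 was at 639.7 and 356 untreated, 1399 and 1269 at 1 day, 3011 and 3338 at 2 days and, once auxin was withdrawn, 924 and 963, a second change of 1.25 (SE 0.19, limma adjusted p = 0.0023), and this call held whichever library was left out. Krt19 was at 18.6 and 26.5 and then at 82.4 and 104. The defining transcription factor genes were low: Gata6 was at 20.1 and 12.7 and then at 24.0 and 11.1, Gata4 at 23.1 and 24.0 and then at 36.1 and 44.4, and Sox17, Sox7 and Foxa2 were not among the genes tested. The count of 6 was 1, Col4a1, without either 2 day library. Of 23 markers of feeder fibroblasts 12 were in the table and 0 of these were at 0 throughout. Among the 12, 1 rose (Col5a1, from 606 and 444 to 730.0 and 834) and 0 fell. This list leaned upward too, with 10 of 12 changes above 0 (median 0.47). Their summed level was 5375.9 and 3740.9 at 1 day and 5155.1 and 5211.5 at 2 days, against 7619.1 and 4106.8 untreated, and its part in the rise of matrix genes was not tested. Of 19 trophoblast genes limma called 0, with 8 higher and 1 lower at an unadjusted p below 0.05. In the trophoblast list 15 changes were above 0 (median 0.30). Of 19 neural genes 1 fell (Stmn2), and 13 changes were above 0 (median 0.05). Cdh1, E-cadherin, rose from 12058 and 10215 to 14212 and 15311.

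Among the named genes the largest rise was that of Thsd4. Thsd4, which encodes a matrix protein of the thrombospondin repeat family, was at 11.3 and 11.1 untreated, 23.7 and 6.94 at 1 day and 111 and 134 at 2 days, a log2 change of 3.14 (SE 0.78, limma adjusted p = 0.032). Slit3, a secreted guidance ligand, was at 75.2 and 51.0 at 1 day, near its untreated 66.4 and 56.4, and at 207 and 206 at 2 days (1.72, SE 0.25, limma adjusted p = 0.0016). Its relative Slit2 was at 309.6 and 92.8 and then at 526 and 605. Dio3, an imprinted gene for the deiodinase that inactivates thyroid hormone, was at 70.9 and 104 and then at 241 and 276. After withdrawal it was at 370.1 and 352, above both 2 day values. Meg3, the imprinted noncoding RNA of the same locus, went from 4905 and 6218 to 8233 and 9620.2, and Gnas rose and Plagl1 fell among 35 imprinted genes. The calls of Slit3 and Dio3 held without any 1 library, those of Thsd4, Slit2, Meg3, Gnas and Plagl1 did not.

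Some genes of sterol synthesis and of protein folding turned back. Of 35 sterol and fatty acid genes 24 were lower at 1 day, beside 17.7% of all genes. Of these, 16 had levelled off, beside 2338 of the 4484 genes called at 1 day in either direction. On the second day 3 rose, Srebf2 and Sqle among them, and 0 fell, beside 1.57% and 4.07% of all genes. Srebf2, the master regulator of sterol genes, was at 4833.7 and 5105 untreated, 3415 and 3462 at 1 day and 4084 and 4139.7 at 2 days, a second change of 0.26 (SE 0.06, limma adjusted p = 0.020). Sqle, squalene epoxidase, was at 2233 and 2110.3 and then at 2661 and 2561. Of 24 heat shock and folding genes 2 rose and 0 fell. Hspa5 (BiP), the chaperone of the endoplasmic reticulum, was at 11347 and 9604, then 5377 and 6107, then 7824 and 8212, and Hspa8, its counterpart in the cytosol, went from 34383 and 33094 to 40364 and 39687. In these 4 genes the 2 day libraries lie between those of 1 day and those of untreated cells. The call of Hspa5 was lost without 2 day replicate 2, and those of Srebf2, Sqle and Hspa8 without either 2 day library. Those of Sqle and Hspa8 were also lost without 1 day replicate 2, and that of Srebf2 once the length and GC trend was removed.

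Other genes that reversed upward were Enox1, a cell surface oxidase gene (684 and 903 untreated, 69.6 and 58.8 at 1 day, 125 and 140.4 at 2 days), and Celsr3, an atypical cadherin (74.4 and 54.0, then 197 and 219). Both calls held without any 1 library. Celsr3 rose past its untreated values of 151 and 148, while Enox1 stayed far below its own. Among genes that reversed downward, Recql, a DNA helicase, was at 592 and 678 untreated, 883 and 864 at 1 day and 411 and 477 at 2 days (-0.98, SE 0.16, limma adjusted p = 0.0031). Nsl1, a kinetochore protein, was at 966 and 644 and then at 427 and 389.7. Kitl, the KIT ligand, was at 23.5 and 28.4, then 104 and 101, then 42.1 and 45.8, and lost its call without any 1 of the 4 libraries. Psd4 had the largest fall of the named genes, and it rested on 1 day replicate 2, at 245 against 43.8 in replicate 1 and 10.4 and 15.3 at 2 days.

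Germline genes leaned upward. Of 25 tested 3 rose (Tdrd1, Mael and Piwil2, all of the pathway of PIWI-interacting RNAs), beside 1.57% of all genes, and 1 fell (Sycp1, of the synaptonemal complex), beside 4.07%. Of the 25 changes 19 were above 0 (median 0.48), with 9 higher and 2 lower at an unadjusted p below 0.05. Tdrd1 was at 25.3 and 18.1 and then at 59.2 and 67.5, and Sycp1 at 135 and 96.8 and then at 39.0 and 53.6. The 3 rises were lost without 1 day replicate 2 or either 2 day library. Of 21 genes of the DNA methylation machinery 1 was called, the fall of Uhrf1. Of 41 lysosome and autophagy genes 1 rose (Ulk1, the autophagy kinase) and 0 fell. Of 27 Nodal and BMP genes 1 rose (Pcsk6), and of 23 genes of MHC class I and the interferon response 1 fell (Bst2). The calls of Ulk1, Pcsk6 and Bst2 were each lost without either 2 day library or 1 of the 1 day libraries. Of 10 targets of the aryl hydrocarbon receptor, a sensor that indoles can activate, limma called 0, with 2 higher and 1 lower at an unadjusted p below 0.05; Cyp1a1 was at 74.5 and 49.8 untreated, 502 and 498 at 1 day, 749 and 813 at 2 days (limma adjusted p = 0.16) and 75.1 and 38.4 on withdrawal.

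Most zinc finger genes of a stretch of distal chromosome 4 fell. This region holds a large cluster of genes for KRAB zinc finger proteins, a family known for silencing transposable elements, and the region and the names below were chosen after their values were seen, so no test is given for them as a set. Between the start of Gm13227 and the end of Zfp933 (GRCm38, chromosome 4, 145410245 to 147848366, 2.44 Mb) lie 25 genes that were tested. Of these 15 fell and 0 rose, or 60% against 4.07% of all genes, with a median of -0.93. Their median level relative to untreated was -0.739 and -0.530 in the 1 day libraries, -1.791 and -1.591 in the 2 day libraries and -0.311 and 0.040 after withdrawal. After withdrawal 18 of the 25 were higher than at 2 days and 1 lower, where 22.2% of all genes were higher and 19.1% lower.

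Rex2, which encodes a zinc finger protein of stem cells, was at 2204 and 1850.2 untreated, 1298 and 1413 at 1 day, 490.0 and 493 at 2 days and, once auxin was withdrawn, 1646 and 2076. Its second change was -1.46 (SE 0.11, limma adjusted p = 2.5e-05), with both pairs of libraries close together and far apart from each other. Gm13225 was at 1712 and 3181 and then at 508 and 511, Zfp600 at 707 and 617 and then at 326 and 338, Gm13212 at 64.8 and 70.2 and then at 16.8 and 20.9, and Gm13139 at 299 and 381 and then at 68.4 and 78.7. Zfp534 was at 261 and 728 and then at 71.0 and 88.8, so that its 1 day replicates differ widely and both still lie above the 2 day values. These 6 calls held whichever library was left out. The genes are close copies of each other, and how reads were divided among them is uncertain.

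The RefSeq promoter windows (GRCm38.p6, 300 bases each) were found by gene symbol for 6 of the 25 genes. They show how alike some of these genes are at their starts. Those of Rex2 and Zfp600 were 99.3% identical, that of Zfp534 was 72.8% and that of Gm13212 67.3% identical to that of Rex2, and those of Zfp933, at the edge of the region, and 4933438K21Rik 49.7% and 46.3%. The first 4 were grouped for their likeness, and runs of 12 or more bases that they share are in capitals; Zfp933 is shown as a window without them. 4933438K21Rik was at 18.1 and 31.9 and then at 29.4 and 27.0, and was not called.
Rex2 (chr4:147021600-147021899, plus strand): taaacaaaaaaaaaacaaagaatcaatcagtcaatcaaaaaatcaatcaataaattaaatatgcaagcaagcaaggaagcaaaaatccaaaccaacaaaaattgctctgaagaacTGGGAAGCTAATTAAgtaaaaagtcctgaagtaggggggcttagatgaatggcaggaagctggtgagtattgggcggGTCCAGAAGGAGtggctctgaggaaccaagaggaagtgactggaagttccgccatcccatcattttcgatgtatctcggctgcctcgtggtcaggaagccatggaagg
Zfp600 (chr4:146156577-146156876, plus strand): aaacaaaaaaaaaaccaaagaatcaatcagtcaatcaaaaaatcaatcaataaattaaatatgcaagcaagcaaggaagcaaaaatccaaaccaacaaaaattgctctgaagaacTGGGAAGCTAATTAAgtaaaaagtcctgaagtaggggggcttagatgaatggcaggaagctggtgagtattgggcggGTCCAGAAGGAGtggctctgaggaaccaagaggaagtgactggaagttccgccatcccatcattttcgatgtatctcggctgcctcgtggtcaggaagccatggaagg
Zfp534 (chr4:147702582-147702881, minus strand): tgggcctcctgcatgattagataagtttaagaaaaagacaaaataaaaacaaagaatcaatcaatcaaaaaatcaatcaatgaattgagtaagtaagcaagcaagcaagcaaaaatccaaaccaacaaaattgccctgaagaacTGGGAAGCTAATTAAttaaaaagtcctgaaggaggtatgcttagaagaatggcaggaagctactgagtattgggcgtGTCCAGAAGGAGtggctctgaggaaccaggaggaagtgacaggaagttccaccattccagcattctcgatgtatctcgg
Gm13212 (chr4:145584950-145585249, plus strand): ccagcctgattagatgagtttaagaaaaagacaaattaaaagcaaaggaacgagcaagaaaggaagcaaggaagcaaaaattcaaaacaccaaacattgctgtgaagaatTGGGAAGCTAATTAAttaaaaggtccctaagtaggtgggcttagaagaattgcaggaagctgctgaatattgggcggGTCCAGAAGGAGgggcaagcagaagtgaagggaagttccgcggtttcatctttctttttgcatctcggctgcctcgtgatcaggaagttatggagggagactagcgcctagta
Zfp933 (chr4:147848369-147848668, minus strand): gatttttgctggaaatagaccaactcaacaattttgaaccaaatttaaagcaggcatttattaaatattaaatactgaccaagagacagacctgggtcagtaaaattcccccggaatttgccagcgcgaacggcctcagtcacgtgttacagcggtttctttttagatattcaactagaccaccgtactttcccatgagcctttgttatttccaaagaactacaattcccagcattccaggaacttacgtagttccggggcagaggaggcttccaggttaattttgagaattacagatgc
The longest shared run, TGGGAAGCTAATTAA, occurs in the windows of 12 of 27025 genes of the table on either strand, all on chromosome 4. Windows were joined to tested genes by gene symbol, and the 4 matched in this way are the 4 from which the run was taken. Whether the other holders of the run were tested under other symbols was not checked. Zfp933 holds 0 bases of the shared runs and went from 83.3 and 86.7 to 50.5 and 48.9 (-0.76, limma adjusted p = 0.015).

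**Figure D4:**
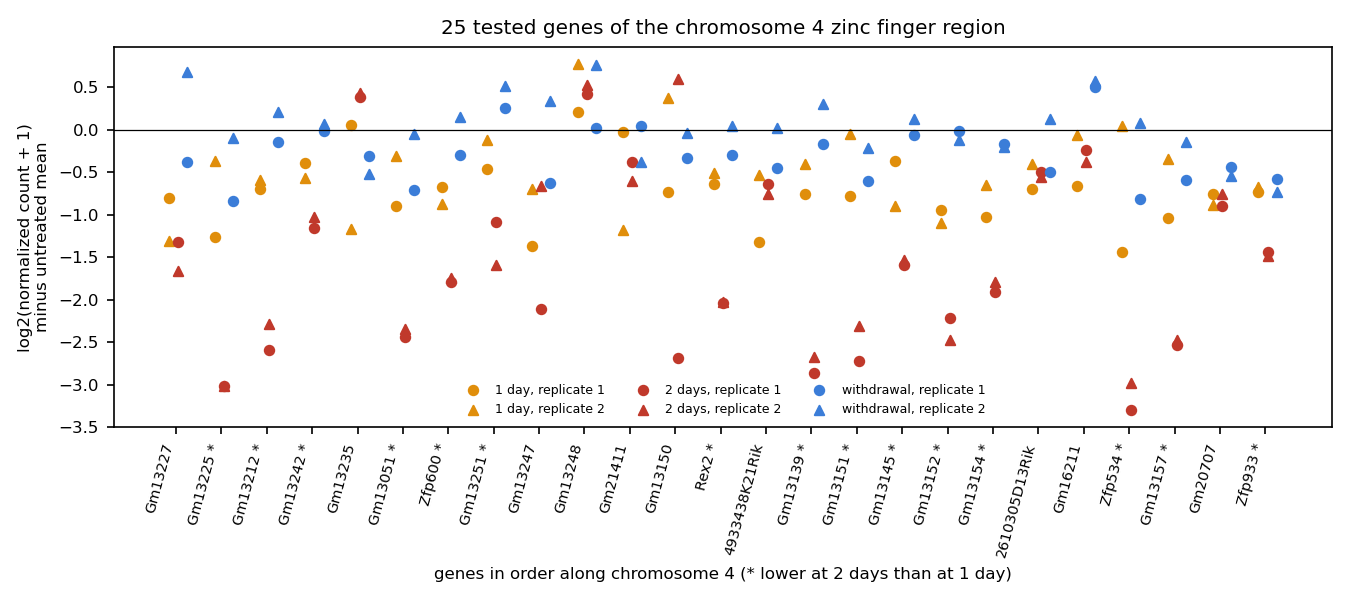
Level of the 25 tested genes of the region relative to the untreated mean (vertical axis, log2), in their order along chromosome 4 (horizontal axis), in the libraries of 1 day (orange), 2 days (red) and withdrawal (blue); stars mark the 15 genes that fell from 1 to 2 days. In the starred genes both red points lie below both orange points, and the medians of the region are -1.791 and -1.591 at 2 days against -0.739 and -0.530 at 1 day.

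Zinc finger genes elsewhere were called too. Of 325 tested genes outside the region named Zfp with a number, 27 fell and 0 rose (8.31%), with a median of -0.09. Over all genes 4.07% fell, with a median of -0.01. On chromosome 17 the count was 9 of 42 and on chromosome 13 it was 8 of 31, against 1 of 83 on chromosome 7. Other chromosomes were not counted, and no rule for choosing these was set, so the contrast between them is no finding. Zfp936 was at 328 and 446 at 1 day, near its untreated 439 and 461, and at 96.6 and 101 at 2 days (-1.94, SE 0.17, limma adjusted p = 7.5e-05), and Zfp942 was at 182 and 220.4 and then at 58.9 and 77.1. Zfp944 was at 213 and 378 and then at 95.05 and 91.6. Zfp958 was at 87.3 and 120.0 and then at 43.8 and 34.6. The 4 calls held without any 1 library. Zfp808, at 238 and 465 and then at 122 and 133, lost its call without 1 day replicate 2 or either 2 day library. A difference in frequency between the region and other zinc finger genes was not tested.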

How the data were processed

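The authors deposited 1 table of normalized counts, read here as a signal; per the submitters' processing notes, Trim Galore, STAR, RSEM, DESeq2 and mm10 were used, with versions and settings not given in the sources used here. The deposited signal holds non-whole normalized counts, so no count model was used. Genes with a mean of at least 10 were tested on log2(normalized count + 1) with limma 3.58.1 in R 4.3.3, over 8 groups of 2 libraries (8 residual degrees of freedom, variance trend), with Benjamini-Hochberg adjustment over 13355 genes. The fit was tested on simulated data with 1 spread per gene for all groups, so that test does not cover the wider spread at 1 day. The alternatives changed the pseudocount, the filter, the scaling, the libraries fitted, weights and a replicate block; removal of a length and GC trend was added after seeing the data. Replicate differences at 1 day and at 2 days correlated at -0.044 across genes, so no shared effect of the replicate number was seen. That does not settle whether libraries of the same number were paired. Named genes are a set of fixed ones (such as Ddx10, Mdm2 and Pou5f1), those of largest change per direction and class whose mean in the 1 and 2 day libraries was 50 or more, with no overlap between the days (for levelled off, between 1 day and untreated), and up to 4 of lowest p per list, with no limit on mean or overlap. Chosen after their values were seen were the chromosome 4 region with Zfp600, Zfp933, 4933438K21Rik and the Gm genes, Gata4 and Gata6, and Ccnf, Col4a2, Eda2r, Foxd3, Ldha and Nid2, named to complete short counts. Lama1 and Lamc1 were also named after their values were seen. The gene lists and the comparison were chosen with earlier results of these data known. Positions are from GENCODE M21 (14467 identifiers matched, 85 did not). Promoters are from RefSeq, matched by gene symbol, so genes with another symbol there were missed. Some genes are not reported here.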

Additional observations from a re-analysis of the deposited data

How the results depend on the processing

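Both pseudocounts, the filters and trimmed means of M values left the 7 counts of called and classed genes within 1.5 times, and no gene was called in opposite directions under any setting. With a replicate block, 185 genes were higher and 512 lower (172 and 504 shared with the fit without it). In that fit 286 progressed, 83 reversed and 2295 levelled off. Whether libraries of the same number were paired is not known. With library weights (0.35 for the 1 day libraries, 1.36 for those of 2 days) 40 genes were higher, 202 lower, 78 progressed, 18 reversed and 1109 levelled off, and against 12 h over 2 h 109 progressed and 34 reversed. With the compared groups alone 0 were higher, 0 lower, 1 progressed, 0 reversed and 971 levelled off; this was not run against 12 h over 2 h, whose libraries it leaves out. Leaving out 1 library at a time gave 30 to 707 higher, 176 to 819 lower, 88 to 441 progressed, 23 to 521 reversed, 1711 to 2329 levelled off, 54 to 407 progressed against 12 h over 2 h and 16 to 225 reversed against 12 h over 2 h genes. With the length and GC trend removed, higher calls came to 234 and lower calls to 589 (160 and 408 shared), and 117 reversed against 12 h over 2 h in place of 77. Of 99 called genes followed one by one, 32 were called whichever library of the 4 was left out, 48 with library weights, 83 with the trend removed and 0 in the groups alone; the causes were not tested. With 2 libraries a group, the median SE of 0.158 limits which changes can be called. Each gene's SE uses 1 spread for all 8 groups. The 1 day replicates differed more (SD 0.533) than those of any group but the untreated, so SEs and p-values can be too small for this comparison.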
